A study of Mus musculus with 6 samples.

Results

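Integrins are cell surface receptors that hold cells to the extracellular matrix, and focal adhesion adaptors are the cytoplasmic proteins that couple them to actin and to kinases. The genes described here were the protein-coding rows of the gene table whose mouse symbol is that of an integrin alpha or beta subunit, with Itgb8 left out by the rule, plus a fixed set of adaptors (Tln1, Tln2, Fermt1, Fermt2, Fermt3, Vcl, Ptk2, Pxn, Ilk, Parva, Parvb, Lims1, Zyx and Bcar1). They numbered 39 of the 55450 genes in the table: 18 alpha subunits, 7 beta subunits and 14 adaptors. The rule uses gene names and no measured value, but it was drawn up with earlier results of these data known.

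The measurements were poly(A) RNA-seq libraries of freshly isolated CD31-positive brain endothelial cells from mouse pups at postnatal day 7 by the age and description labels, while a separate time label reads P0. The 3 mutant libraries came from Cdh5(PAC)-CreERT2; Rbpjflox/flox mice, in which both alleles of Rbpj are floxed, and the 3 control libraries from Cdh5(PAC)-CreERT2; Rbpjflox/WT mice, which have 1 floxed allele. Both groups therefore carried the tamoxifen-inducible Cre recombinase, which the Cdh5 (VE-cadherin) promoter drives in endothelium, both were given tamoxifen (100 µg at each of postnatal days 1 and 2), and both had a genetic background mixed from FVB/N and C57BL/6, with male and female pups used alike. RNA was pooled from many pups before the 3 libraries of each group were sequenced, and the labels do not say whether these came from separate pools, so the p-values measure only the spread between libraries, which may be technical. The product of Rbpj binds DNA and carries the Notch signal to target genes.

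Each integrin is a pair of 1 alpha and 1 beta subunit, and the pair decides the ligand. Subunit beta1 pairs with many alpha subunits and serves receptors for collagen, laminin and fibronectin, alphav pairs with beta3 and beta5 to bind ligands with an arginine-glycine-aspartate (RGD) motif, and beta2 integrins belong to leukocytes. Talins and kindlins bind the tail of the beta subunit and switch the receptor on. The complex of integrin-linked kinase, PINCH and parvin, together with vinculin, paxillin, focal adhesion kinase and zyxin, then ties it to actin. In growing vessels, alpha5beta1 and the alphav integrins are known as receptors for fibronectin and other provisional matrix, and alpha6beta1 and alpha3beta1 for the laminins of the basement membrane.

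Mutant libraries held 75744913 to 81556241 estimated counts and control libraries 78577192 to 82092461, where about 4 counts stand for 1 read pair. Expression is given as CPM, the counts scaled to a common library size with TMM factors. A gene is called higher or lower in the mutant when the adjusted p of edgeR's quasi-likelihood test, with Benjamini-Hochberg adjustment over the 19549 genes tested, was under 0.05. Rbpj itself was lower in the mutant libraries by 0.21 ± 0.042 on the log2 scale (adjusted p = 0.0129), a weak check, since the count covers the whole gene. Endothelial markers were abundant in both groups, with a sum of 15529 to 16756 CPM in mutant and 16532 to 17183 CPM in control libraries, but 10 of the 15 were called. In the mutant libraries 4 were higher, among them Pecam1 (0.41), which encodes the CD31 used for the isolation, and 6 were lower, among them Cdh5 (-0.15), Tek (-0.62) and the transporter genes Mfsd2a (-0.65) and Slco1a4 (-1.72). Cldn5, a tight junction gene, was not called (0.01). Mutant library 3 stood apart from the other mutant libraries on the second principal component (-55.6, against 31.2 and 26.2), so the member counts are also given without it. Markers of some other cells moved with the groups as well. As a background, 14.4% of all tested genes were called, and 20.8% of those with a mean of at least 5 CPM. Of 15 microglia and macrophage markers, 9 were lower in the mutant libraries, and their summed level was 1485 to 1568 CPM in mutant and 1899 to 1936 CPM in control libraries. Of 12 fibroblast markers, 3 were lower, with a summed level of 1031 to 1554 CPM in mutant and 1601 to 2093 CPM in control libraries. Of 8 tested erythroid markers, 5 were lower, with a sum of 4666 to 4962 CPM in mutant and 6975 to 7180 CPM in control libraries. Of 10 astrocyte markers, 2 were lower, with a sum of 276 to 405 CPM in mutant and 500.0 to 553 CPM in control libraries. Fibroblast (25%) and astrocyte markers (20%) were thus called at shares near that of genes with at least 5 CPM. Of 12 neuron markers 1 was lower, with a sum of 227 to 272 CPM in mutant and 214 to 222 CPM in control libraries. Of 10 oligodendrocyte lineage markers 2 were higher and 1 lower, and of 11 granulocyte and monocyte markers 1 was higher. The part of these markers in the results on integrins and adaptors was not tested. In such bulk samples fewer cells of a type and less RNA per cell cannot be told apart.

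Of the 39 genes, 37 passed the filter on low counts and were tested, and 13 of these 37 (35.1%) were called, against a background of 14.4% over all tested genes. In the mutant libraries 7 members were higher, where 7.56% of all tested genes were higher, and 6 were lower, where 6.83% were lower. Among genes with a mean of at least 5 CPM, 11 of 32 members (34.4%) were called, against 20.8% of all such genes. Integrin subunits made up most of the calls, 10 of 24 tested (41.7%). Of 13 tested adaptors 3 were called (23.1%), a share near the 20.8% of all genes with a mean of at least 5 CPM. The median log2 fold change was 0.04 over the 37 tested members and -0.01 over all tested genes, with 22 positive and 15 negative values among the members. The groups of 3 libraries did not overlap for 21 of the 37, against 34.1% of all tested genes. Without mutant library 3, 8 members were higher and 4 lower.

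**Figure D1:**
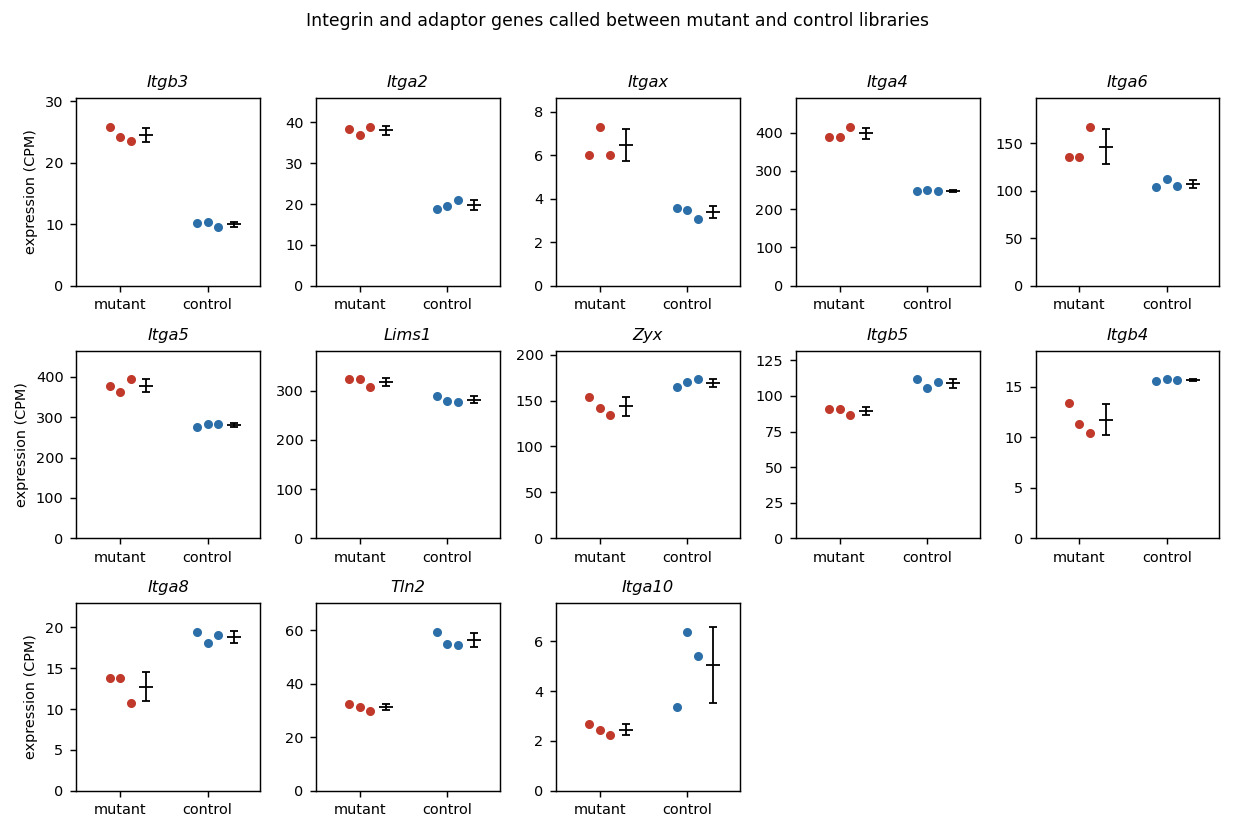
Expression in CPM (y axis, from 0) of the 13 called genes in each of the 3 mutant libraries (red) and 3 control libraries (blue), with the mean and SD of each group beside the points, ordered from the largest rise to the largest fall. Itgb3 lies between 23.6 and 25.9 CPM in the mutant and between 9.52 and 10.3 CPM in the control libraries, and no called gene overlaps between the groups.

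Among the beta subunits, Itgb3 rose most and Itgb5 and Itgb4 fell. Itgb3 (ENSMUSG00000020689), at chr11:104608000-104670476 (plus strand, GRCm38), encodes beta3, the partner of alphav in vessels and of alphaIIb in platelets. Its expression was 25.9, 24.2 and 23.6 CPM in the mutant libraries, against 10.2, 10.3 and 9.52 CPM in the control libraries. Every mutant library was thus above every control library, by a log2 fold change of 1.295 ± 0.072 (SE, adjusted p = 3.95e-05), or 2.45-fold. Itgb5 (ENSMUSG00000022817), at chr16:33829665-33949338 (plus strand), encodes beta5, which also pairs with alphav. It had 90.8, 91.2 and 86.5 CPM in the mutant libraries, against 112, 105 and 110.0 CPM in the control libraries, a fall of 0.28 ± 0.040 on the log2 scale (adjusted p = 0.00313) with no overlap between the groups. Per kilobase of exon, the ratio of Itgb3 to Itgb5 was 0.165 ± 0.0060 in mutant and 0.0553 ± 0.0035 in control libraries (SD, n = 3 each). An exact two-sided permutation test of this ratio gave p = 0.1, the smallest that 3 libraries against 3 allow. Since both genes already separated the groups, in opposite directions, this outcome was fixed and the test adds no support.

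Itgb4, which encodes the beta4 chain of the laminin receptor alpha6beta4, was at 13.4, 11.3 and 10.4 CPM in the mutant libraries and at 15.6, 15.7 and 15.6 CPM in the control libraries. The change was -0.42 ± 0.102 (adjusted p = 0.0334), and the call did not hold in 5 of the 6 fits with 1 library left out: leaving out control library 1, 2 or 3 gave an adjusted p of 0.0967, 0.0982 and 0.0868, and leaving out mutant library 2 or 3 gave 0.107 and 0.0776. Itgb1 (ENSMUSG00000025809), the common beta1 chain, was the most abundant beta subunit, at 1294, 1296 and 1345 CPM in the mutant libraries and 1197, 1227 and 1241 CPM in the control libraries. All mutant libraries lay above all control libraries, but the difference of 0.10 ± 0.031 missed the threshold (adjusted p = 0.0696). It passed with library size only (adjusted p = 0.0359) and with counts divided by 4 (0.0405). Itgb2, the leukocyte beta2 chain (0.16 ± 0.074, adjusted p = 0.209), and Itgb7, a leukocyte chain that pairs with alpha4 and alphaE (0.23 ± 0.164, adjusted p = 0.431), were not called. Itgb6, an epithelial subunit, had at most 0.269 CPM in any library and was not tested.

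Levels of different subunits can be compared only per length, here as CPM per kilobase of the union of a gene's exons. On that scale Itgb1 made up 89.2 ± 0.50% of the summed level of the 7 beta subunits in mutant and 87.8 ± 0.47% in control libraries (SD, n = 3 each). Itgb5 followed with 6.997 ± 0.32% in mutant and 9.00 ± 0.33% in control libraries. Itgb3 held 1.16 ± 0.070% in mutant and 0.498 ± 0.027% in control libraries, so that even after its rise it stayed below Itgb5 and Itgb2 in every mutant library. These shares are descriptions and were not tested.

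Itga4 and Itga5, which encode alpha subunits of some of the fibronectin receptors, were both higher in the mutant libraries. Among other alpha subunits that bind RGD ligands, Itga8 was lower and Itgav could not be compared, as given below. Itga4 (ENSMUSG00000027009), at chr2:79255426-79333123 (plus strand), encodes alpha4, which with beta1 binds fibronectin and the endothelial adhesion molecule VCAM1. It had 389.5, 389.0 and 415 CPM in the mutant libraries, against 248, 251 and 246 CPM in the control libraries. The groups were far apart relative to the spread within them (log2 fold change 0.68 ± 0.036, adjusted p = 3.25e-05). Itga5 (ENSMUSG00000000555), at chr15:103344286-103366763 (minus strand), encodes alpha5 of the fibronectin receptor alpha5beta1. It had 378, 362 and 394 CPM in the mutant libraries and 276, 284 and 284 CPM in the control libraries, again without overlap (0.42 ± 0.039, adjusted p = 0.000384). Per kilobase, Itga5 was the highest of the alpha subunits in all 6 libraries, with 76.6 ± 3.2 CPM per kb in mutant and 57.1 ± 0.96 in control libraries. Itga4 came next in the mutant libraries (28.5 ± 1.1 CPM per kb), above Itga1 (22.6 ± 0.76). In the control libraries the order was turned round, with Itga4 at 17.8 ± 0.18 and Itga1 at 21.7 ± 0.78 CPM per kb. The summed level of the 18 alpha subunits was 188 ± 6.1 CPM per kb in mutant and 155 ± 5.9 in control libraries.

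**Figure D2:**
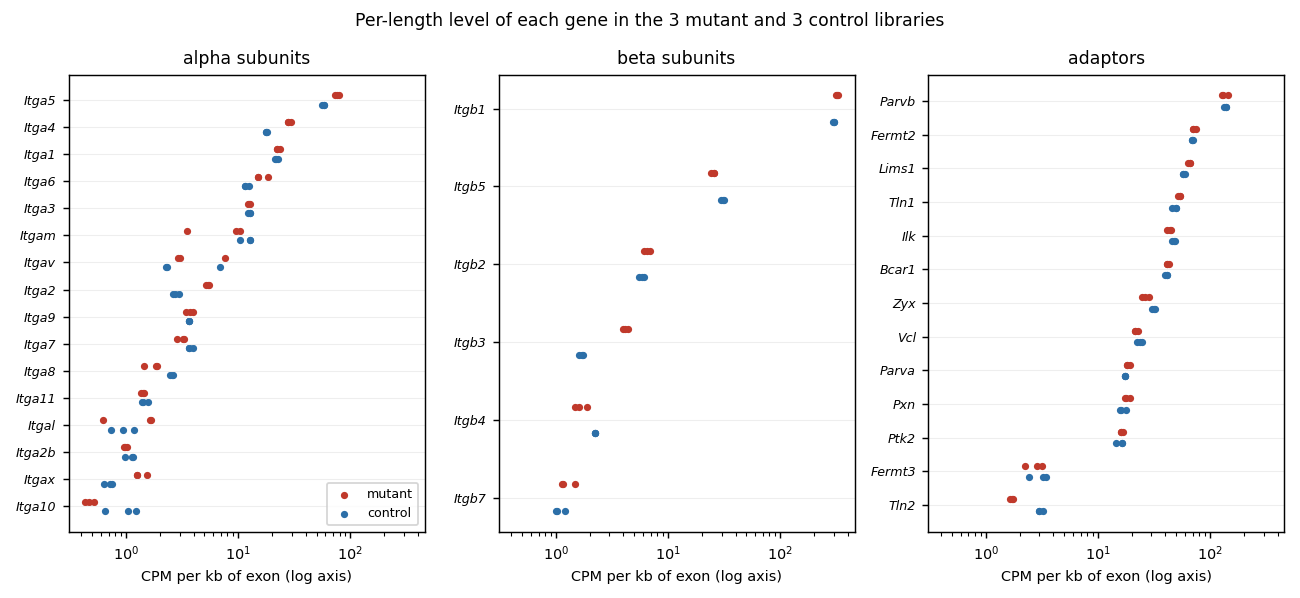
Level in CPM per kb of exon (x axis, log scale) of each alpha subunit, beta subunit and adaptor, with 3 points for the mutant (red, upper) and 3 for the control libraries (blue, lower), ordered by mean level; genes under 0.1 CPM per kb are left out. Itgb1 and Itga5 lead their families in all 6 libraries, and Itga4 lies above Itga1 in the mutant libraries (28.5 and 22.6 CPM per kb) and below it in the control libraries (17.8 and 21.7).

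Of the alpha subunits besides alpha5 that bind RGD ligands, Itga8 was lower, Itga2b was not called and Itgav could not be compared. Itga8, whose product alpha8 is known from smooth muscle and other mesenchymal cells, was at 13.8, 13.8 and 10.7 CPM in the mutant libraries and 19.5, 18.0 and 19.1 CPM in the control libraries, a fall of 0.56 ± 0.109 on the log2 scale (adjusted p = 0.0128). Without control library 1 its adjusted p was 0.0520. Contractile smooth muscle markers fell in the same libraries: Acta2 (-1.32), Tagln (-1.17), Myh11 (-1.02) and Cnn1 (-1.84) were all lower, within a list of 15 pericyte and smooth muscle markers of which 5 were higher and 6 lower and whose sum was 4429 to 4528 CPM in mutant and 4324 to 4456 CPM in control libraries. Their part in the fall of Itga8 was not tested. Itga2b, the platelet subunit alphaIIb, was at 5.21 to 5.60 CPM in mutant and 5.37 to 6.27 CPM in control libraries (-0.15 ± 0.109, adjusted p = 0.459). None of 11 tested platelet and megakaryocyte markers was called, and their sum was 24.9 to 34.2 CPM in mutant and 28.0 to 35.7 CPM in control libraries.

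Itgav, the partner of both beta3 and beta5, could not be compared, because its libraries fell into 2 levels that cut across the groups; it is named here after its values were seen. Its expression was 82.3, 31.4 and 32.3 CPM in the mutant libraries and 25.1, 74.1 and 24.6 CPM in the control libraries. Mutant library 1 and control library 2 were thus more than 2-fold above the rest of their group. The log2 fold change of 0.24 ± 0.684 had an adjusted p of 0.879, and it ran from -0.37 without mutant library 1 to 0.98 without control library 2. No other annotated gene shares exons with Itgav on its strand. Of 32 members with a mean of at least 5 CPM, 3 (Itgav, Itgam and Itgal) differed at least 2-fold between libraries of 1 group, against 5.01% of the 11738 tested genes at that level.

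Among the laminin receptors Itga6 rose, and Itga3 and Itga7 were not called. Itga6 (ENSMUSG00000027111), at chr2:71745616-71858416 (plus strand), encodes alpha6, an endothelial laminin receptor chain. It had 136, 135 and 167 CPM in the mutant libraries and 104, 112 and 105 CPM in the control libraries, with mutant library 3 the highest (0.45 ± 0.089, adjusted p = 0.0174). Without mutant library 3 the change was 0.35 (adjusted p = 0.0041), and leaving out control library 1 or 3 gave an adjusted p of 0.0739 or 0.0775. Itga3, the alpha3 chain, was at 69.7 to 72.9 CPM in mutant and 69.8 to 72.3 CPM in control libraries (0.00 ± 0.038, adjusted p = 0.996). Itga7, a muscle laminin receptor chain that is given by library after its values were seen, was at 26.4, 26.2 and 23.0 CPM in the mutant libraries and 31.9, 29.3 and 29.3 CPM in the control libraries. Its difference of -0.26 ± 0.074 missed the threshold (adjusted p = 0.0583) and passed it with DESeq2 (0.0298).

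The collagen receptors split, with Itga2 higher, Itga10 lower and the abundant Itga1 not called. Itga2 (ENSMUSG00000015533), at chr13:114833081-114932100 (minus strand), encodes alpha2. Its expression was 38.5, 36.8 and 38.9 CPM in the mutant libraries, against 18.7, 19.5 and 21.01 CPM in the control libraries. Each mutant library was well above each control library (0.95 ± 0.063, adjusted p = 8.49e-05, 1.93-fold). Itga1, which encodes alpha1, lies 20995 bases from Itga2 on the same strand. It was at 415, 409 and 436 CPM in the mutant libraries and 400.3, 420.2 and 392.1 CPM in the control libraries, which overlap (0.06 ± 0.040, adjusted p = 0.444). The per-length ratio of Itga2 to Itga1 was 0.236 ± 0.0046 in mutant and 0.128 ± 0.011 in control libraries, with an exact two-sided permutation p = 0.1, the smallest possible. With Itga2 already separating the groups, this test adds no support. Itga10 was low, at 2.68, 2.45 and 2.23 CPM in the mutant libraries and 3.37, 6.37 and 5.42 CPM in the control libraries. Its change of -1.04 ± 0.235 (adjusted p = 0.0241) was not called with limma-voom (0.0534), nor when control library 2 or 3 or any of the mutant libraries was left out (0.0599 to 0.0847). It shares exons with Gm42957 on its strand, and with the counts of both genes summed, an alternative added after the data were seen, the change was -1.04 (adjusted p = 0.0139). Itga11, a fibroblast collagen receptor chain, was not called (-0.04 ± 0.094, adjusted p = 0.828). Itga9, which is related to alpha4, was not called either, at 26.4 to 30.4 CPM in mutant and 28.0 to 28.2 CPM in control libraries.

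**Figure D3:**
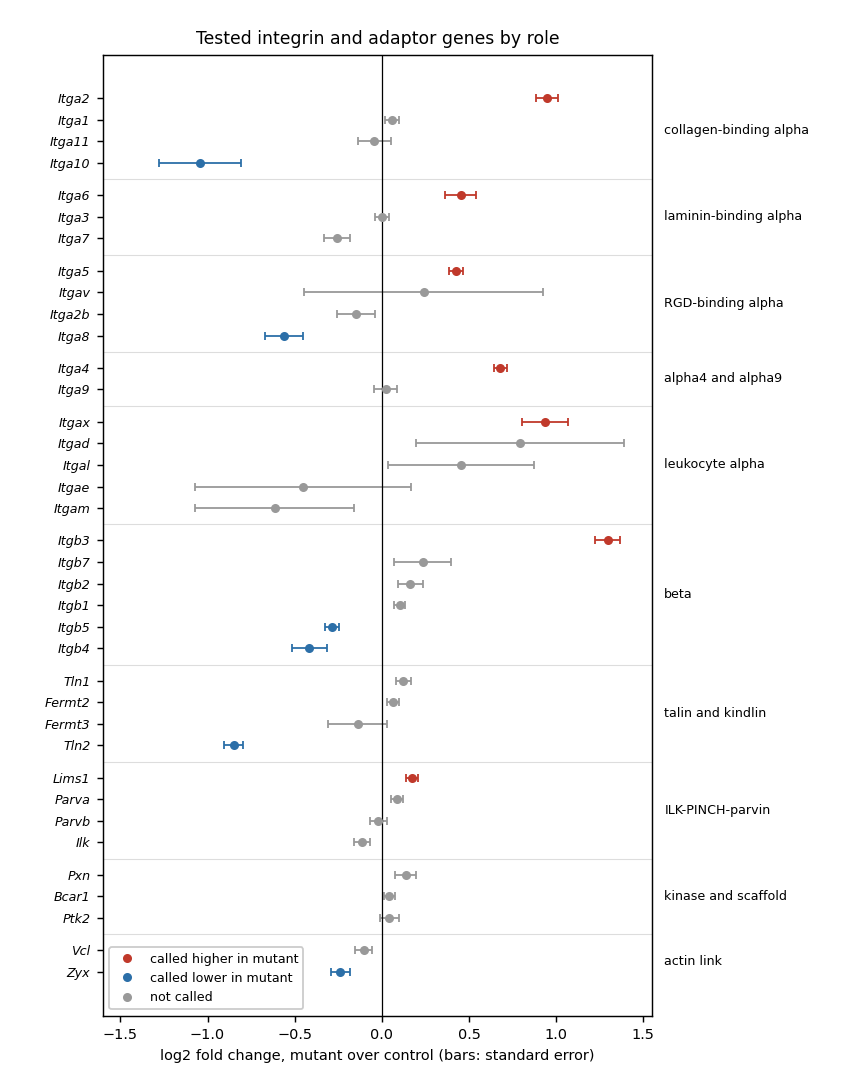
Log2 fold change of mutant over control (x axis) with its standard error (bars) for the 37 tested genes, grouped by role; red points were called higher, blue points lower and grey points were not called. Every role but the kinases and scaffolds holds at least 1 called gene, and calls go in both directions among the collagen-binding, RGD-binding and beta subunits, while Itgav has the widest error, 0.684.

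The sequences upstream of 5 called subunits are shown because Rbpj acts at DNA and because these genes moved in opposite directions in its mutant. They are the 250 bases before the transcription start in RefSeq on GRCm38.p6, 5′ to 3′ on the strand of the gene. Capitals mark matches, on either strand, to 3 motifs: TGGGAA, the core of the RBPJ site, GGAAG, a core of ETS factor sites that can overlap the first, and GGGCGG, the GC box. The first 3 genes rose and the last 2 fell.
Itga4: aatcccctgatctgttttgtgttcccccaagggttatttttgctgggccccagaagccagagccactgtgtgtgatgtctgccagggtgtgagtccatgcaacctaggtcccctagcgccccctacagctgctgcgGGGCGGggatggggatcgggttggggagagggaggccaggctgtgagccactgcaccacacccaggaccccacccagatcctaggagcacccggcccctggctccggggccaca
Itga5: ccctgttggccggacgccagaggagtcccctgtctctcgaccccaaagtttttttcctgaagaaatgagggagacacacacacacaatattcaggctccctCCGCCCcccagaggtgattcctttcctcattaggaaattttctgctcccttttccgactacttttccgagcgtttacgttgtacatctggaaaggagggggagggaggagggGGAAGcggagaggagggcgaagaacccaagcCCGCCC
Itga2: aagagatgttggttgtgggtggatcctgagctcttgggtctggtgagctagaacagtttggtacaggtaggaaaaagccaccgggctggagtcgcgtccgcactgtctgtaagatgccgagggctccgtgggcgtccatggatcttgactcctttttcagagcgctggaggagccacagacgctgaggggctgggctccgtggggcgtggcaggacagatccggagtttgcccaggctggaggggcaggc
Itgb5: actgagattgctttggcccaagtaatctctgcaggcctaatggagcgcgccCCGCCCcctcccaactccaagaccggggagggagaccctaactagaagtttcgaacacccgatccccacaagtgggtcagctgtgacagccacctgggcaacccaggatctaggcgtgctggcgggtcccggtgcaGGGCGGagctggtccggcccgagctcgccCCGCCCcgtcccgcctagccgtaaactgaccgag
Itga8: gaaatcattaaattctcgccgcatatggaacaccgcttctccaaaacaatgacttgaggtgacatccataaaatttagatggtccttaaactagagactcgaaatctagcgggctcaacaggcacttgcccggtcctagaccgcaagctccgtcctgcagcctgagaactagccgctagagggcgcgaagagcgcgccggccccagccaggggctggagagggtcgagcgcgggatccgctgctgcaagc
These stretches lie at chr2:79255176-79255425 (plus strand) for Itga4, chr15:103366792-103367041 (minus strand) for Itga5, chr13:114932101-114932350 (minus strand) for Itga2, chr16:33829415-33829664 (plus strand) for Itgb5 and chr2:12301945-12302194 (minus strand) for Itga8. The 5 sequences held no RBPJ core, and only Itga5 among them held an ETS core. The called genes Itgax, Lims1, Itga10 and Zyx also had windows, which are not shown, and each of these genes held an ETS core. GC boxes numbered 1 upstream of Itga4, 2 upstream of Itga5 and 3 upstream of Itgb5, and none upstream of Itga2 and Itga8. RefSeq windows were matched for 27 of the 39 genes (33 windows). The RBPJ core was found in 4 of these 33 windows, against 21.6% of all 32851 windows of that length, and the 4 genes that held it (Bcar1, Fermt1, Itga2b and Vcl) were not called, or in the case of Fermt1 not tested. The ETS core was in 24 of the 33 windows, against 64.1% of all windows, and the GC box in 16 of the 33, against 32.7%. By gene, 5 of the 9 called genes with a window held the ETS core and 5 of 9 the GC box. Among the 16 genes with a window that were not called, 13 held the ETS core and 8 the GC box. These counts merge the windows of a gene, unlike the shares over all windows. The called genes Itgb3, Itgb4, Itga6 and Tln2 had no matched window. A match is only a run of letters in this window.

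Leukocyte alpha subunits mark cells other than endothelium, chiefly microglia, macrophages and lymphocytes. Itgax, which encodes the alpha chain CD11c, was low but higher in the mutant libraries, at 6.03, 7.31 and 6.02 CPM, against 3.58, 3.48 and 3.05 CPM in the control libraries (0.94 ± 0.131, adjusted p = 0.00289). Microglia and macrophage markers moved the other way, as given above: Csf1r fell by 0.39 and Fcrls by 0.45 on the log2 scale. Their part in the values of Itgax was not tested. Itgam, which encodes CD11b and lies 11.1 kb from Itgax, was at 17.5, 52.6 and 47.7 CPM in the mutant libraries and 52.1, 64.5 and 63.6 CPM in the control libraries, with mutant library 1 far below the rest (-0.61 ± 0.456, adjusted p = 0.489). The gene Gm49368 is annotated on the same exons and strand, and it had 35.3 CPM in mutant library 1 and at most 2.78 CPM in any other library. Summed over both genes, the level was 52.7, 52.6 and 50.5 CPM in mutant and 52.1, 64.5 and 63.6 CPM in control libraries, a change of -0.21 ± 0.082 (adjusted p = 0.149); this sum was added after the data were seen. Itgal, the lymphocyte chain CD11a, is also given by library after its values were seen, and was at 10.7, 10.98 and 4.13 CPM in the mutant libraries and 4.84, 7.76 and 6.20 CPM in the control libraries, which overlap (adjusted p = 0.575). Without mutant library 3 it was called, at 0.79 ± 0.194 (adjusted p = 0.0499). Lymphocyte markers summed to 22.1 to 26.7 CPM in mutant and 19.6 to 21.6 CPM in control libraries, and none of the 12 tested was called. Itgad and Itgae stayed under 1 CPM in every library and were not called.

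**Figure D4:**
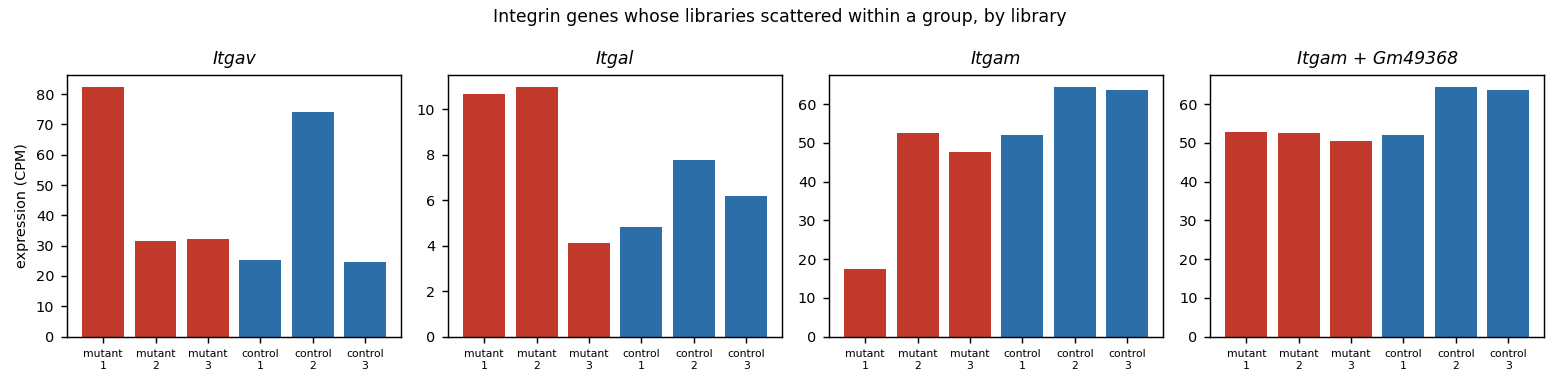
Expression in CPM (y axis, from 0) of Itgav, Itgal, Itgam and the sum of Itgam and Gm49368 in each mutant (red) and control (blue) library. Mutant library 1 and control library 2 stand out for Itgav (82.3 and 74.1 CPM), mutant library 3 for Itgal (4.13 CPM), and the low bar of mutant library 1 for Itgam (17.5 CPM) is absent from the sum (52.7 CPM).

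Of the 13 adaptors tested, the second talin had the largest log2 fold change, and 10 were not called. Tln2 (ENSMUSG00000052698), at chr9:67217087-67559703 (minus strand), encodes talin 2, a paralogue of the talin that activates integrins in most cells. Its expression was 32.3, 31.5 and 30.0 CPM in the mutant libraries, against 59.4, 55.0 and 54.6 CPM in the control libraries. All mutant libraries were below all control libraries, by a log2 fold change of -0.85 ± 0.055 (adjusted p = 7.5e-05). Tln1, the major talin, was at 523, 503 and 525 CPM in the mutant libraries and 490.3, 486 and 448 CPM in the control libraries, without overlap and not called (0.12 ± 0.043, adjusted p = 0.108). The per-length ratio of Tln2 to Tln1 was 0.0323 ± 0.0016 in mutant and 0.0634 ± 0.0026 in control libraries (SD, n = 3 each), with an exact two-sided permutation p = 0.1, the smallest possible. With both talin genes already separating the groups, in opposite directions, this test adds no support. Of the kindlins, Fermt2, the form of most adherent cells, was at 368, 369 and 388 CPM in mutant and 356, 364 and 357 CPM in control libraries (0.06 ± 0.033, adjusted p = 0.283). Fermt3, the form of blood cells, was at 12.9 to 18.3 CPM in mutant and 14.0 to 19.7 CPM in control libraries and was not called, and Fermt1, an epithelial form, had 0 counts in all 6 libraries and was not tested.

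The complex of integrin-linked kinase, PINCH and parvin had 1 called member. Lims1, which encodes PINCH1, was at 323.5, 323.3 and 308 CPM in the mutant libraries and 289.8, 279 and 278 CPM in the control libraries, a small rise of 0.17 ± 0.035 (adjusted p = 0.0153). Leaving out control library 2 or 3 moved its adjusted p to 0.0568 and 0.0541, and leaving out mutant library 1 or 2 to 0.0592 and 0.0553. Ilk, the kinase-like scaffold, was at 114, 123 and 121 CPM in mutant and 124, 134 and 129.9 CPM in control libraries (-0.11 ± 0.045, adjusted p = 0.153). Parvb, the most abundant adaptor per length, was at 565, 580.0 and 634 CPM in mutant and 587, 608 and 609 CPM in control libraries, which overlap (-0.02 ± 0.047, adjusted p = 0.85). Parva was at 185 to 194 CPM in mutant and 175 to 179 CPM in control libraries and was not called (0.09 ± 0.034, adjusted p = 0.143).

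Of the remaining adaptors, which are zyxin, vinculin, focal adhesion kinase, paxillin and p130Cas, zyxin was called. Zyx, which recruits actin regulators to strained adhesions, was at 154, 142 and 134 CPM in the mutant libraries and 165, 170.1 and 173 CPM in the control libraries, a fall of 0.24 ± 0.054 on the log2 scale (adjusted p = 0.0244). Leaving out control library 1, 2 or 3 moved its adjusted p to 0.0587, 0.0855 and 0.0773, and leaving out mutant library 2 to 0.0861. Vcl, which encodes the actin linker vinculin, was at 175 to 187 CPM in mutant and 182 to 202 CPM in control libraries (-0.10 ± 0.048, adjusted p = 0.222). The focal adhesion kinase gene Ptk2 was at 189 to 197 CPM in mutant and 172 to 195 CPM in control libraries (0.04 ± 0.054, adjusted p = 0.7). The paxillin gene Pxn was at 143 to 159.5 CPM in mutant and 129.9 to 146 CPM in control libraries (0.14 ± 0.061, adjusted p = 0.202). Bcar1, the scaffold p130Cas, was at 188 to 195 CPM in mutant and 181 to 187 CPM in control libraries (0.04 ± 0.033, adjusted p = 0.476). Antisense genes overlap exons of several of these adaptors, of which Ap3m1, opposite Vcl, had 174 to 196 CPM in mutant and 208 to 211 CPM in control libraries, and Taf10, opposite Ilk, 57.8 to 64.2 CPM in mutant and 53.5 to 56.9 CPM in control libraries. The library kit keeps the strand, but no source used here says if the counting did, so reads of such pairs may be mixed.

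Other genes of integrin adhesions were called in both directions. Of 33 further genes that link adhesions to actin, 5 were higher and 6 lower in the mutant libraries (33.3% called, median log2 fold change -0.03). Over all tested genes 14.4% were called, and 20.8% of those with a mean of at least 5 CPM. Csrp1 (0.36 ± 0.034, adjusted p = 0.000412), Tes (0.28) and Vasp (0.22), a partner of zyxin in actin assembly, were higher, and Sorbs2 (-0.52 ± 0.054, adjusted p = 0.000693), Kank2 (-0.37) and the tensin gene Tns1 (-0.39) were lower. Of 38 adhesion signalling genes, 6 were higher and 2 lower (21.1% called, median 0.06), a share near that of all genes with at least 5 CPM. The Src family kinase genes Fyn (0.41 ± 0.057, adjusted p = 0.00266) and Yes1 (0.31 ± 0.035, adjusted p = 0.000975) and the phosphatase gene Ptpn12 (0.45 ± 0.045, adjusted p = 0.000576) were higher. Src itself was lower (-0.17 ± 0.043, adjusted p = 0.0384), as was Rapgef2 (-0.29), an activator of the integrin regulator Rap1. Src lost its call with any control library or mutant library 1 or 2 left out, and with the replicate number as a block (adjusted p up to 0.153). Of 27 tested genes that bind integrin tails or steer integrin activity, 2 were higher and 4 lower (22.2% called, median 0.00), which is also near it. Plaur, the urokinase receptor, which associates with integrins at the cell surface, rose to 68.9, 75.1 and 73.4 CPM in the mutant libraries, against 28.5, 28.7 and 27.9 CPM in the control libraries (1.35 ± 0.048, adjusted p = 6.92e-06). Mdga1 (0.30) was the other higher gene, with an adjusted p of 0.0519 and 0.0557 without control library 2 or 3 and 0.0551 without mutant library 1. The syndecan genes Sdc1 (-1.11 ± 0.073, adjusted p = 8.34e-05) and Sdc2 (-0.54) and the endocytic adaptor gene Dab2 (-0.39) were lower.

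Many ligands of integrins were called, in both directions. Of 52 tested matrix ligands, 15 were higher and 19 lower (65.4% called, against 14.4% of all tested genes and 20.8% of those with a mean of at least 5 CPM), with a median log2 fold change of -0.23. Lamb1 (1.01 ± 0.042), Nid2 (0.98 ± 0.042) and Lama4 (0.90 ± 0.041), basement membrane genes of vessels, were higher, and Lama1 (-1.49 ± 0.050), Lamb2 (-0.80 ± 0.042) and Fbln5 (-0.59 ± 0.037) were lower. A pair of ligands is added here by name after their values were seen: Spp1, which encodes the RGD ligand osteopontin, rose by 2.03 ± 0.085, while the fibronectin gene Fn1 was at 3063, 3345 and 3689 CPM in mutant and 4246, 4535 and 3831 CPM in control libraries and missed the threshold (-0.32 ± 0.088, adjusted p = 0.067). The matrix list also holds fibroblast genes, such as Col1a2 (-0.54) and Col3a1 (-0.49). Of the 12 fibroblast markers given above, 3 were called lower (25%), a share near the 20.8% of genes with a mean of at least 5 CPM. Their part in the values of the matrix ligands was not tested. Of 9 tested ligands on cell surfaces, 3 were higher and 3 lower (66.7% called, median -0.11). Vcam1, a ligand of alpha4beta1, fell to 36.2, 35.5 and 32.8 CPM in the mutant libraries, against 62.6, 65.5 and 64.6 CPM in the control libraries (-0.88 ± 0.052, adjusted p = 5.25e-05). Icam1, a ligand of beta2 integrins (-0.36 ± 0.032), and Jam2 (-0.36 ± 0.060) were lower, and F11r (0.24 ± 0.031), Madcam1 (0.41 ± 0.079) and Jam3 (0.28 ± 0.057) higher. Jam3 had an adjusted p of 0.0552 without control library 2 and of 0.0589 with the replicate number as a block. The rise of Itga4 and the fall of Vcam1 thus stood side by side in the same 3 mutant libraries.

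**Figure D5:**
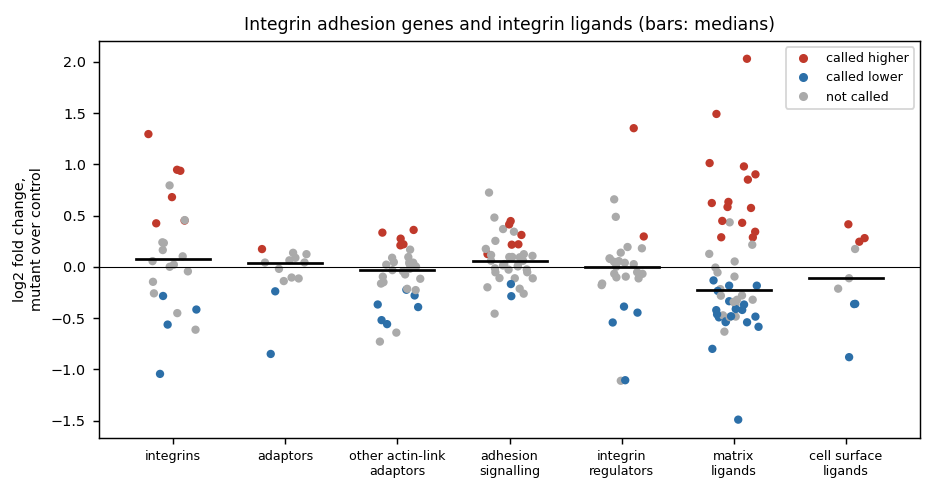
Log2 fold change of mutant over control (y axis) for each tested integrin, adaptor and gene of the 5 further lists (x axis); red points were called higher, blue lower and grey not called, and black bars are list medians. Medians lie between -0.23 for the matrix ligands and 0.08 for the integrins, with called genes on both sides of 0 in every list.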

How the data were processed

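For the 6 libraries the authors deposited estimated counts, written as whole numbers for each gene and not normalized. The submitters' processing notes name cutadapt 1.10, FastQC 0.10.1, HISAT2, StringTie 1.3.4, edgeR and the build GRCm39, without roles. A second deposited table gave the count of valid reads per library (50226902 to 53986268), with 1.508 to 1.526 estimated counts per valid read. A count of 4 was found in 1118 to 1190 genes per library, against 316 to 365 genes for a count of 3. Counts are therefore not independent molecules, and a fit on counts divided by 4 was run as an alternative. All 55450 gene IDs matched GENCODE M21, the annotation used for names, exon lengths and the GRCm38 coordinates.

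Genes passing edgeR's filterByExpr were fitted with TMM scaling and edgeR's quasi-likelihood test on group (edgeR 4.0.16, R 4.3.3), with Benjamini-Hochberg adjustment over all of them. The fit was also run on counts simulated independently from its own means and dispersions. Such counts lack the steps of about 4 per read pair, so that run could not check their effect. Alternatives used RLE factors, library size only, no filter, DESeq2 1.42.0, limma-voom (limma 3.58.1), a replicate block and each library left out in turn. Transcript length was tried only for the shares of the beta subunits. The other per-length levels and the ratios were not computed with it. Ratios were compared by exact permutation of libraries, which adds no support where a gene of the ratio already separated the groups. Values after ± are standard errors for log2 fold changes and SD over 3 libraries otherwise.

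The members and lists were chosen with earlier results of these data known. Members called or with a mean of at least 50 CPM in either group are described by library. Of these, Itga3, Parva, Vcl, Ptk2, Pxn and Bcar1, which were not called, are given by group range. From each further list the 3 higher and 3 lower genes with the smallest adjusted p are named. Itgav, Itga7, Itgal, Spp1 and Fn1 were described outside these rules, after their values were seen. The other genes outside them are given by ranges or fitted values or as markers.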

Additional observations from a re-analysis of the deposited data

How the results depend on the processing

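Of the 13 called members, 7 kept their call in each of the 13 alternatives (Itgb3, Itga2, Itgax, Itga4, Itga5, Tln2 and Itgb5), 6 lost it in at least 1, and none changed sign. Members called higher numbered 5 to 8 and members called lower 3 to 5 with 1 library left out, against 7 and 6 with all libraries. With the replicate block 7 members were higher and 3 lower, and Itga10 (adjusted p = 0.0685), Itgb4 (0.0590) and Zyx (0.0679) lost their calls. Over all genes the block gave 1106 higher and 953 lower, against 1477 and 1335. Libraries with the same number did not deviate together (correlations of -0.023, 0.0097 and 0.023). Such correlations cannot show whether the libraries were handled in pairs, and the labels do not say so. The sign changed for 7 members in at least 1 alternative, none of them called: with 1 library left out, Parvb ran from -0.0651 to 0.0138 (0.0034 without mutant library 2), Ptk2 from -0.0089 to 0.0791 and Itga3 from -0.0151 to 0.0247 (-0.0098 without control library 1), and Itga3 was -0.0084 with library size only. Itga11 was 0.01 and Itgae 0.20 without control library 1, Itga9 was -0.02 without mutant library 3, and Itgav was -0.01 and -0.03 without control library 1 or 3 and -0.37 without mutant library 1. The cause was not tested. With transcript length, Itgb4 held 0.691% of the beta subunits in control libraries, against 0.655%. Of the 28 other named genes, 25 kept their call in each alternative. With 3 libraries a group, small changes and genes under 5 CPM were measured with little precision.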
